A study of Mus musculus with 6 samples.

Results

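The genes described here are *Alb*, *Afp*, *Afm* and *Gc*, which belong to the albumin family, the transcription factor genes *Zhx2* and *Zbtb20*, which are known to repress *Afp*, and *Gpc3*, a cell-surface gene of fetal liver and liver tumors. They were taken by name from the gene table, which gave 7 of 31950 genes, and all 7 passed the filter on low values used for testing. RNA came from livers of C57BL/6 mice aged 8 weeks, with 3 livers labelled WT and 3 labelled *β-catenin Δ(ex3)/+*, 1 library each. The mutant mice carry 1 *Ctnnb1* allele that lacks exon 3, which holds the residues whose phosphorylation marks β-catenin for degradation. The methods describe an inducible line in which tamoxifen activates a Cre recombinase made under the albumin promoter, and also adenoviral delivery of Cre. The name *β-catenin Δ(ex3)/+* goes with livers of the tamoxifen line, while mice given the adenovirus are named by the floxed allele. The methods for RNA state neither the route nor whether the WT mice received the same agent. Nothing in the labels gives the sex of the mice or says how the 3 livers of a group relate.

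Albumin and its relatives are carrier proteins that hepatocytes secrete into plasma. *Afp* is the main plasma protein gene of the fetal liver, and it is shut down after birth while *Alb* stays high. ZHX2 and ZBTB20 are zinc finger proteins needed for that shutdown, and *Afp*, *Gpc3* and *H19* are classic genes that come back on in liver tumors.

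Values were FPKM, fragments per kilobase of transcript, scaled to the mapped total of each library. FPKM are not counts, and the spacing of small FPKM in 8588 genes with 1 exon gives only the relative depth of the libraries. The best steps lay at 49.5, 49.2 and 49.0 M fragments for the WT livers and 38.2, 34.0 and 39.1 M for the *β-catenin Δ(ex3)/+* livers. Within 0.02 of a whole fragment, those steps held 26.6% to 35.2% of the values, where a step not picked as the best would hold 4%, and a scale 0.5 times as large held 21.8% to 29.1%, so the absolute depth was not settled. On either scale the WT libraries were deeper, by 1.33 times on average.

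The libraries differed by more than the labels say. *Xist*, whose RNA coats the silenced X chromosome in females, had 20.3, 22.2 and 21.1 FPKM in the WT livers and 0.0146, 0 and 0.0128 FPKM in the mutant livers. The Y-linked *Eif2s3y* had 0.0169, 0 and 0 FPKM in the WT livers and 9.94, 9.20 and 9.37 FPKM in the mutant livers. The WT livers thus showed the female pattern and the mutant livers the male pattern, and sex and genotype cannot be told apart in any comparison of these 6 livers. Genes of the young liver were high in the WT livers at the labelled age, with *H19* at 2320, 2374 and 2364 FPKM and *Igf2* at 836.0, 802.8 and 846.7 FPKM. In the mutant livers *H19* was between 0.0107 and 0.0480 FPKM and *Igf2* was listed at 0. The labels give both groups the same age, and a difference in maturity cannot be told apart from genotype either. All results below carry both limits.

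The tissue label was checked against hepatocyte markers. All 8 were present in each liver, summing to 31298, 29890 and 30375 FPKM in WT and 9865, 9880 and 9948 FPKM in mutant livers. *Apoa1* was the most abundant in WT and *Ttr* in mutant livers, and these genes made up most of each sum, which was lower in every mutant liver. By both thresholds 4 of the 8 were lower and 1, *Tat*, was higher. *Tat* was 48.9 FPKM on average in WT and 334 FPKM in mutant livers. *Cps1* was higher by adjusted p alone. *Apob* gave no call, at 27.6, 27.7 and 25.9 FPKM in WT and 148.8, 45.4 and 43.3 FPKM in mutant livers. Without mutant replicate 3 *Apob* passed both thresholds (1.57), and without mutant replicate 1 adjusted p alone (0.69). *Asgr1*, a receptor of the hepatocyte surface, was 291.9, 315.2 and 300.6 FPKM in WT and 295.2, 283.3 and 286.7 FPKM in mutant livers, and its groups overlapped, but it was lower by adjusted p alone after rescaling each liver to a fixed sum (-0.14), median-ratio scaling (-0.24) and quantile normalization (-0.27). *Ctnnb1* itself was 25.9, 28.0 and 27.3 FPKM in WT and 25.4, 25.2 and 25.0 FPKM in mutant livers, a value per gene from which the loss of 1 exon cannot be read. The log2 fold change of *Ctnnb1* was -0.10, without a call. By adjusted p alone it was lower after rescaling each liver to a fixed sum (-0.17), median-ratio scaling (-0.27) and quantile normalization (-0.40). *Glul*, a textbook target of β-catenin in liver, was 102.6, 104.6 and 102.4 FPKM in WT and 626.2, 632.9 and 618.7 FPKM in mutant livers, so the groups did not overlap.

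*Afp* was the member with the largest fold change. It had 600.8, 611.6 and 610.5 FPKM in the WT livers and 2.48, 2.38 and 2.81 FPKM in the mutant livers. Every WT liver was high, every mutant liver was near the level of a weakly expressed gene, and the groups did not overlap. The mean was 608 ± 5.94 FPKM in WT and 2.55 ± 0.226 FPKM in mutant livers (SD, n = 3 each), so the WT level was 238-fold the mutant level. On the log2(FPKM + 1) scale, which understates changes of low genes, it fell by 7.42 (limma adjusted p = 8.94e-09, standard error 0.053). Of the 13243 genes tested it was at place 5 from the lowest log2 fold change. In rank of FPKM within a liver, *Afp* went from places 80 to 83 in WT to places 7232 to 7812 in mutant livers.

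*Gpc3*, which encodes a glypican, a heparan sulfate proteoglycan anchored in the cell membrane, went the same way. It had 54.7, 55.9 and 57.4 FPKM in WT livers and 1.41, 1.80 and 1.55 FPKM in mutant livers. The WT livers were within a narrow range, far above each mutant liver. Its log2 fold change was -4.47 (limma adjusted p = 1.16e-07, standard error 0.067), at place 22 from the lowest of all genes tested. *Afp* fell further than *Gpc3* did. The ratio of *Gpc3* to *Afp* was 91.1, 91.3 and 94.1 per 1000 in WT and 567.6, 757.4 and 550.3 per 1000 in mutant livers, a log2 difference of 2.75 (two-sided exact permutation test, p = 0.1). That p is the smallest 3 livers against 3 can give, and the same holds for each permutation test here.

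*Alb* was the most abundant gene in every liver. It had 41343, 43342 and 39618 FPKM in the WT livers and 24788.5, 25012 and 24721 FPKM in the mutant livers. The mutant livers lay close together and below each WT liver, at 60.0% of the WT mean. Its log2 fold change was -0.74 (limma adjusted p = 1.14e-05, standard error 0.033), under the fold threshold of 2. Quantile normalization, which gives the top gene of each liver the same value, removes this change. In bulk tissue, fewer cells of a type and less RNA per cell cannot be told apart. *Alb* was 2.20 to 2.69 times the next gene in WT, where *Apoa1* came second, and 1.44 to 1.503 times the next in mutant livers, where the mitochondrial *mt-Co1* came second.

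*Gc*, the vitamin D binding protein gene, was 2717, 2942 and 2748 FPKM in WT and 2454, 2513 and 2471 FPKM in mutant livers. Each mutant liver was lower, by a small margin, and the log2 fold change was -0.18 (limma adjusted p = 0.00641, standard error 0.035). That call was lost after quantile normalization. *Afm*, which encodes afamin, a vitamin E binding plasma protein, was 154.8, 162.4 and 158.2 FPKM in WT and 142.5, 139.6 and 139.0 FPKM in mutant livers. Again the groups did not overlap and the change was small, with a log2 fold change of -0.17 (limma adjusted p = 0.00414, standard error 0.031). *Albfm1*, a further family gene beside *Afm* that was not among the 7, had 42.4, 43.5 and 41.6 FPKM in WT and 9.72, 9.33 and 10.4 FPKM in mutant livers. It fell by 2.01 on the log2 scale (limma adjusted p = 9.21e-07, standard error 0.050), which placed it between *Afp* and *Alb*.

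The repressor genes moved the other way, at low levels. *Zhx2* had 1.50, 1.39 and 1.73 FPKM in the WT livers and 3.52, 3.20 and 3.29 FPKM in the mutant livers. All mutant livers were above all WT livers, and the ratio of the means was 2.17. On the log2(FPKM + 1) scale the change was 0.77 (limma adjusted p = 0.000237, standard error 0.071), which does not reach the fold threshold. *Zbtb20* had 0.654, 0.716 and 0.608 FPKM in WT and 1.66, 1.56 and 1.76 FPKM in mutant livers. The groups were apart here too, with a ratio of means of 2.52 and a log2 fold change of 0.68 (limma adjusted p = 0.000221, standard error 0.062). With a pseudocount of 0.1 in place of 1, both genes passed the fold threshold. *Zbtb20* has 21 transcripts in GENCODE M21, the longest of 26901 bases, and its FPKM depends on which of them are counted.

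**Figure D1:**
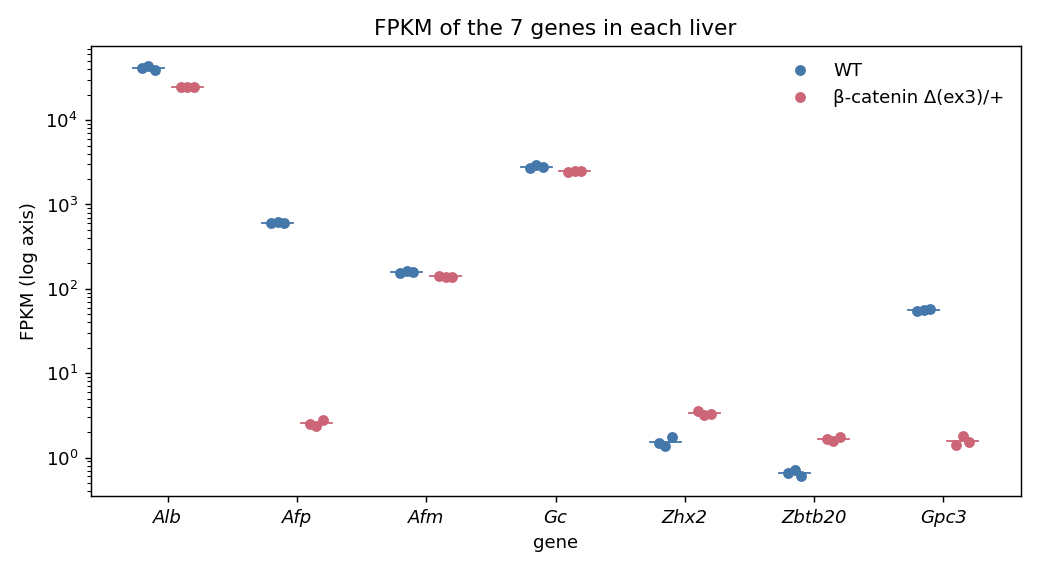
FPKM of each of the 7 genes, on a log axis, in the 3 WT livers and the 3 *β-catenin Δ(ex3)/+* livers; points are livers and lines are group means. *Afp* and *Gpc3* are far lower in the mutant livers, while *Zhx2* and *Zbtb20*, at most 3.52 FPKM in any liver, are higher.

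By the rule of an adjusted p under 0.05 and a fold change of at least 2, 2 of the 7 genes were lower in mutant livers and 0 were higher; among all 13243 genes tested, 4.52% were lower and 8.17% higher. By adjusted p alone, 5 of the 7 were lower and 2 higher, against 19.6% and 37.4% of all genes tested. The groups did not overlap for any of the 7, which was also true of 66% of all genes tested, so separation of the groups is common in this table and is no mark of these genes. The median log2 fold change was -0.18 over the 7 and 0.14 over all genes tested. Median-ratio scaling shifted the latter by -0.12 and quantile normalization by -0.16. The scalings made the changes of *Afm* and *Gc* larger, with *Afm* at -0.35 and -0.38 and *Gc* at -0.35 and -0.19, the last without a call.

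Ratios within a liver do not change when all values of a library are multiplied by 1 factor. *Afp* stood at 14.5, 14.1 and 15.4 per 1000 of *Alb* in WT and at 0.0999, 0.0950 and 0.114 per 1000 in mutant livers. The log2 ratio fell by 7.16 between the groups (two-sided exact permutation test, p = 0.1), so that in fold terms *Afp* dropped far more than its neighbor *Alb*. *Gc* was 65.7, 67.9 and 69.4 per 1000 of *Alb* in WT and 99.0, 100.5 and 99.9 per 1000 in mutant livers, a log2 difference of 0.56. *Afm* was 3.74, 3.75 and 3.99 per 1000 of *Alb* in WT and 5.75, 5.58 and 5.62 per 1000 in mutant livers, also a log2 difference of 0.56. For both, every mutant liver was above every WT liver (two-sided exact permutation tests, p = 0.1 for each). *Gc* and *Afm* were thus higher relative to *Alb* in the mutant livers, although their FPKM was slightly lower. Quantile normalization, which does change such ratios, holds *Alb* constant and puts *Gc* and *Afm* lower relative to it.

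The 5 family genes in the table together made up 10.1%, 10.5% and 9.70% of the summed FPKM in WT livers and 5.91%, 5.88% and 5.79% in mutant livers. The share was lower in each mutant liver and fell by 4.24 percentage points between the means of 10.1 ± 0.423% and 5.86 ± 0.063% (SD, n = 3 each; two-sided exact permutation test, p = 0.1). *Alb* alone was 9.30% on average in WT and 5.30% in mutant livers.

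*Alb*, *Afp*, *Afm* and *Albfm1* lie in a row on the plus strand of chromosome 5. *Alb* (ENSMUSG00000029368) runs from 90460897 to 90476602, *Afp* (ENSMUSG00000054932) from 90490737 to 90508907 and *Afm* (ENSMUSG00000029369) from 90518932 to 90553543, with gaps of 14134 and 10024 bases. *Albfm1* starts 7563 bases beyond *Afm*. *Gc* (ENSMUSG00000035540) lies on the minus strand of the same chromosome, from 89417522 to 89457898. *Zhx2* is on chromosome 15, *Zbtb20* on chromosome 16 and *Gpc3* on chromosome X. These positions are those of the table, whose build is not given in the sources used here; each of the 7 has the same start and end in GENCODE M21, an annotation of GRCm38.

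The differences were uneven along this stretch. Within 500 kb of *Alb*, *Afp* and *Afm* the table holds 25 genes, these included, of which 15 were tested, and 4 of those were lower and 2 higher by both thresholds. Besides *Afp* and *Albfm1*, the lower genes were the platelet chemokine genes *Ppbp*, at 10.4, 11.3 and 10.3 FPKM in WT and 0.824, 1.92 and 0.906 FPKM in mutant livers, and *Pf4*. The higher genes were *Cox18*, a mitochondrial assembly factor gene with 2.10, 1.96 and 1.99 FPKM in WT and 5.66, 5.78 and 4.93 FPKM in mutant livers, and the chemokine gene *Cxcl1*. *Cox18* was under 2-fold after median-ratio scaling and quantile normalization, at 0.96 and 0.93. *Ankrd17*, upstream of *Alb*, did not pass the test, but did without WT replicate 2, at 0.44. *Rassf6*, beyond *Albfm1*, had a log2 fold change of -0.28 (limma adjusted p = 0.0249), a call lost without WT replicate 2 or 3 or mutant replicate 1, at -0.23, -0.28 and -0.22, and also with no filter on low values. The non-coding *Gm43449* overlaps the end of *Afp*, and *Gm42109* that of *Afm*; both were low in every liver, with means of 0.361 and 1.16 FPKM in WT and 0.851 and 1.61 FPKM in mutant livers, and the use of strand in counting is not given in the sources used here. Around *Gc*, the 500 kb windows hold 5 genes with *Gc* itself, and the other one tested, *Slc4a4*, had a log2 fold change of 0.41 (limma adjusted p = 0.00112).

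**Figure D2:**
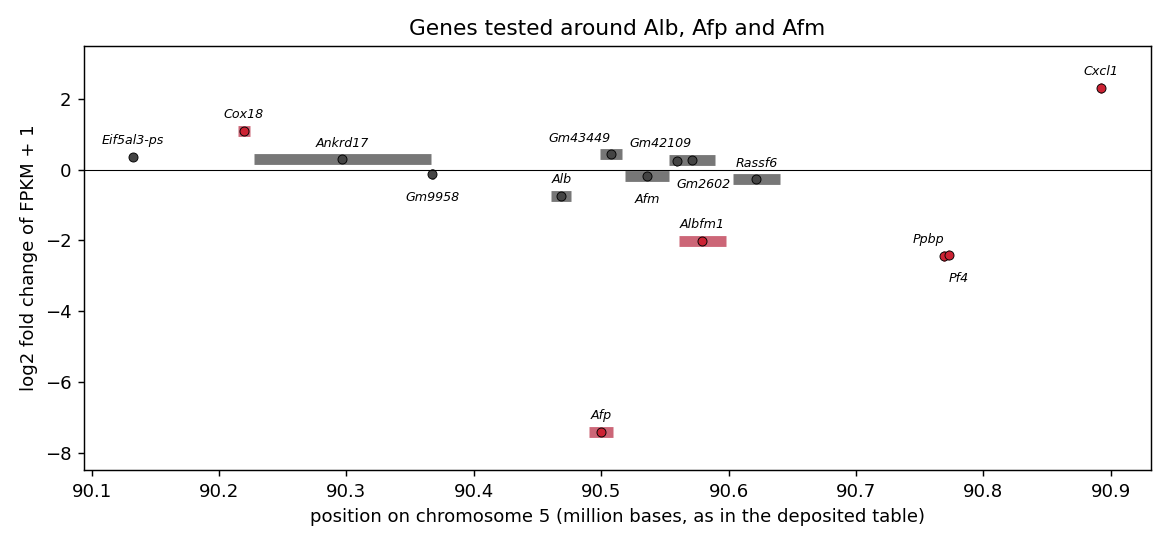
Log2 fold change of FPKM + 1, *β-catenin Δ(ex3)/+* against WT, for the 15 genes tested within 500 kb of *Alb*, *Afp* and *Afm*, drawn at their positions on chromosome 5; bars span the genes, dots mark their midpoints and genes in red passed both thresholds. *Afp*, at -7.42, stands between *Alb*, at -0.74, and *Afm*, at -0.17.

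Because *Alb* and *Afp* are neighbors that differed so much in size of change, their promoters are shown, as the 250 bases before the start in RefSeq on GRCm38.p6, plus strand, 5′ to 3′. Capitals mark TTGGCA, a half-site of the NFI factors, searched on both strands. The *Afp* window is chr5:90490464-90490713 and the *Alb* window is chr5:90460620-90460869, both outside the genes as the table places them.
*Afp*: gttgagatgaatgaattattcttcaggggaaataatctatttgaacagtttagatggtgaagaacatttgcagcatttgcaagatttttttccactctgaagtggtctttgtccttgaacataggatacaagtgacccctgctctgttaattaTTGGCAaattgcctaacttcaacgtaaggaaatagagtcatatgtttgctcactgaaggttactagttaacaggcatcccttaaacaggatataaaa
*Alb*: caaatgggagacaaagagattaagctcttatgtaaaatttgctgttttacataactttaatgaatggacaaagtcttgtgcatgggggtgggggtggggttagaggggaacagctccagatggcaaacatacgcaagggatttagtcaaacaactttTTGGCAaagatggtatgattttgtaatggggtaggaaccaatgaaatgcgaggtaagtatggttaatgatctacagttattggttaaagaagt
The half-site began 97 bases before the start of *Afp* and 93 bases before that of *Alb*, and 12.5% of the 27025 promoters of this length hold it. Promoters were given for *Alb*, *Afp*, *Afm*, *Gc*, *Albfm1*, *Zbtb20* and *Gpc3*, and the half-site was found in those of *Afp* and *Alb* alone. TTGCNNAA, a C/EBP motif found in 9.55% of promoters, also occurred 1 time in *Afp* and 1 time in *Alb*, and in *Alb* it overlaps the half-site. TGTTTAC for FOXA (3.09% of promoters) and AAGGTCA for NR5A2 (4.05%) were in none of these windows, and CTTTGA for TCF/LEF (14.0%) was in that of *Afm* alone. A match is a description of letters, and no binding was measured here.

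Genes for the factors known to act on *Afp* and *Alb* were taken as a list of 17, of which 14 were tested. By both thresholds 3 were higher, *Hnf4a*, *Cebpb* and *Nfic*, and 0 were lower, and by adjusted p alone 6 were higher and 2 lower. Under either quantile normalization or median-ratio scaling 4 were higher and 4 lower by adjusted p alone, as *Foxa2* and *Cebpa* lost their calls and *Nr2f2* and *Rora* became lower. The call of *Foxa2* was also lost after rescaling each liver to a fixed sum (0.13), with the replicate block (0.20) and without mutant replicate 1 (0.18). *Hnf4a*, a nuclear receptor that maintains hepatocyte identity, had 56.7, 58.6 and 57.6 FPKM in WT and 125.2, 123.8 and 125.8 FPKM in mutant livers. *Cebpb* had 34.9, 16.5 and 31.8 FPKM in WT and 89.9, 81.9 and 86.7 FPKM in mutant livers. All mutant livers were above all WT livers for both. After median-ratio scaling or quantile normalization only 1 of the list passed both thresholds, and *Hnf4a* and *Nfic* were then under 2-fold, at 0.93 and 0.88 after median-ratio scaling. Without WT replicate 2, *Nfic* was at 0.98.

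Most of the other factor genes did not pass the test. *Foxa1* was higher and *Foxa3* and *Nfib* lower by adjusted p alone, with log2 fold changes of 0.97, -0.44 and -0.57. *Nfib* had 5.24, 5.71 and 5.10 FPKM in WT and 3.32, 3.20 and 3.27 FPKM in mutant livers. Its call was kept in all 14 of its alternatives. *Foxa1* passed both thresholds at a pseudocount of 0.1 (1.24), after rescaling each liver to a fixed sum (1.06) and without mutant replicate 1 (1.02). *Nr5a2* and *Nr2f2*, nuclear receptor genes, had log2 fold changes of 0.08 and -0.07, and neither passed the test, but *Nr2f2* was lower by adjusted p alone after median-ratio scaling (-0.20) and quantile normalization (-0.23). *Nfix* varied between the mutant livers, at 1.17, 4.16 and 12.9 FPKM, and gave no call. The median over the 14 was 0.10, against 0.14 over all genes tested.

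The ZHX family has 3 genes, *Zhx1*, *Zhx2* and *Zhx3*, and 0 of them passed both thresholds. *Zhx1* had 3.12, 0.954 and 2.41 FPKM in WT and 3.78, 4.93 and 4.23 FPKM in mutant livers, and *Zhx3* had 3.54, 3.81 and 3.68 FPKM in WT and 0.349, 4.01 and 0.362 FPKM in mutant livers. *Zhx1* was above WT in each mutant liver (log2 fold change 0.81, limma adjusted p = 0.0481), while for *Zhx3* mutant replicate 2 lay with WT and the other two lay far below. The call of *Zhx1* was lost in 10 of its 14 alternatives, among them those without WT replicate 3 (0.90) or without mutant replicate 1, 2 or 3 (0.88, 0.73 and 0.82), and without WT replicate 1 it passed both thresholds, at 1.04. Without WT replicate 2 it was 0.50. *Zhx3* did not pass (log2 fold change -1.16, limma adjusted p = 0.103), but did without mutant replicate 2, at -1.79 (limma adjusted p = 3.99e-05, the lowest of alternatives that reached up to 0.257).

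Of 8 genes known to respond to *Zhx2* in mouse liver, all 8 were tested, and 4 were lower and 4 higher by both thresholds; the list includes *Afp* and *Gpc3*. The lower ones besides these were *H19*, an imprinted non-coding RNA, and *Lpl*, the lipoprotein lipase gene, with 42.5, 43.7 and 42.0 FPKM in WT and 5.76, 5.81 and 5.60 FPKM in mutant livers. The higher ones were *Mup20*, *Elovl3*, *Cyp4a12a* and *Cyp2a4*. *Mup20* and *Cyp4a12a* were listed at 0 in each WT liver, and *Mup20* had 133.3, 169.1 and 145.8 FPKM in the mutant livers. *Mup20* and *Cyp2a4* have close relatives between which fragments can be split. *Mup20*, *Elovl3* and *Cyp4a12a* are also genes of male liver, so their values cannot be told apart from the sex pattern above. *Cyp2a4* is a female-biased gene but was higher in the mutant livers, which showed the male pattern. It had 1.41, 1.64 and 1.70 FPKM in WT and 8.52, 9.77 and 9.20 FPKM in mutant livers. The list was not split by the known direction of response, so these counts do not score a response to *Zhx2*.

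**Figure D3:**
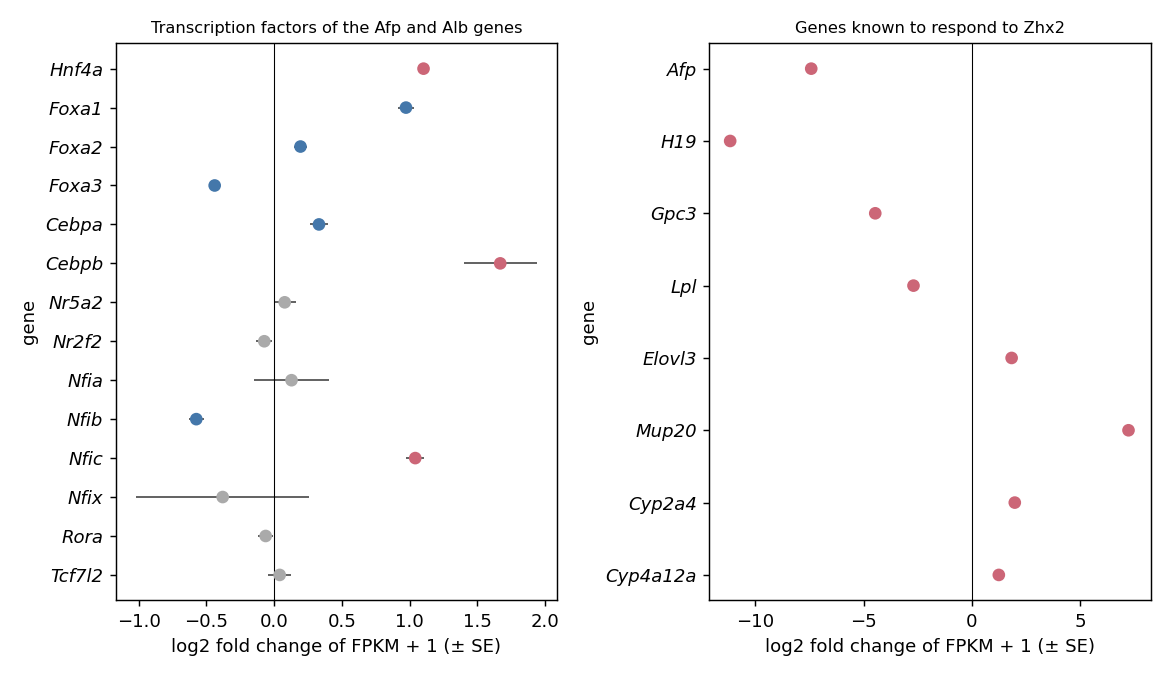
Log2 fold change of FPKM + 1 with its standard error, *β-catenin Δ(ex3)/+* against WT, for the 14 tested factor genes (left) and the 8 genes that respond to *Zhx2* (right); red points passed both thresholds, blue points adjusted p alone and gray points neither. *Hnf4a*, *Cebpb* and *Nfic* passed both thresholds on the left.

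Among the glypicans, 3 of 6 were tested. *Gpc4*, from 52053021 to 52165252 on chromosome X beside *Gpc3* (52272426 to 52613950), had 11.3, 10.9 and 11.8 FPKM in WT and 18.0, 18.3 and 17.7 FPKM in mutant livers, and *Gpc1* had 0.508, 0.865 and 0.460 FPKM in WT and 2.10, 2.02 and 1.56 FPKM in mutant livers. Both were higher by adjusted p alone, and *Gpc1* passed both thresholds after rescaling to a fixed sum (1.10) and at a pseudocount of 0.1 (1.52), and *Gpc3* was the only tested glypican that was lower. *Gpc2*, *Gpc5* and *Gpc6* were at most 0.258 FPKM in any liver.

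Other plasma protein genes give a setting for *Alb*. Of 16, all were tested, and by both thresholds 3 were lower, *Apoa1*, *Ahsg* and *Ttr*, and 1 was higher, *Hpx*; by adjusted p alone 12 were lower and 2 higher. *Ahsg*, which encodes fetuin-A, had 9722, 9790 and 10629 FPKM in WT and 1815, 1728 and 1714 FPKM in mutant livers, a larger fold change than that of *Alb*. *Hpx*, which encodes the heme carrier hemopexin, had 2640, 2717 and 2683 FPKM in WT and 5393, 5337 and 5360 FPKM in mutant livers. Its fold change lay at the threshold, and its log2 value was 0.83 after median-ratio scaling, 0.93 after rescaling each liver to a fixed sum, 0.99 without WT replicate 1 and 0.997 without mutant replicate 1, all under it. *Trf*, the transferrin gene, was also lower past 2-fold in 3 alternatives, after that rescaling (-1.01), median-ratio scaling (-1.11) and quantile normalization (-1.19). *Serpinc1* had no call, but was lower by adjusted p alone after the same 3 scalings (-0.36, -0.46 and -0.46) and without WT replicate 1 (-0.41). *Apob*, also without a call, passed both thresholds without mutant replicate 3 (1.57) and adjusted p alone without mutant replicate 1 (0.69). The median over the 16 was -0.45, so *Alb*, at -0.74, was on the side of the list as a whole. Their summed FPKM was 75477, 75567 and 76048 in WT and 40633, 41048 and 40748 in mutant livers, with *Apoa1* the most abundant in WT and *Apoa2* in mutant livers.

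The genes with profiles most like those of *Afp* and *Gpc3* were found by the root mean square difference of mean-centred log2(FPKM + 1) values over the 6 livers, a measure on which the contrast between the groups weighs most. For *Afp* they were the sulfotransferase genes *Sult2a2*, *Sult2a1* and *Sult2a5*, at 0.18, 0.29 and 0.73. *Sult2a2* had 314.0, 320.8 and 310.5 FPKM in WT and 0.305, 0.818 and 0.978 FPKM in mutant livers; these genes have near-identical copies, so their own levels are uncertain, and *Sult2a1* is a female-biased gene of mouse liver. For *Gpc3* they were *Xist*, *Stfa3* and *Fabp5*, at 0.08, 0.08 and 0.10. *Fabp5*, a fatty acid binding protein gene, had 242.8, 257.6 and 232.4 FPKM in WT and 10.7, 10.1 and 10.1 FPKM in mutant livers. The nearness of *Xist* rests on the pseudocount of 1. *Xist* averaged 21.2 FPKM in WT and 0.00913 FPKM in mutant livers, and *Gpc3* 56.0 and 1.58 FPKM. For *Gpc3*, as for every gene here, genotype and sex cannot be told apart in these livers.

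Lists of genes that mark maturity and sex moved with *Afp* and *Gpc3*. Of 13 genes of the young liver, 11 were tested, 10 were lower in mutant livers and 1, *Scd2*, was higher, a call lost without WT replicate 2 or 3 or mutant replicate 1 (1.44, 1.47 and 1.42); their summed FPKM was 3242, 3256 and 3296 in WT and 7.87, 7.05 and 9.78 in mutant livers, with *H19* the most abundant in WT and *Cdkn1c* in the mean of mutant livers. Of 12 genes of the adult liver, all tested, 9 were higher and 1, *Cyp8b1*, was lower (7 higher and 1 lower under either quantile normalization or median-ratio scaling), and *Obp2a*, *Mup20* and *Cyp4a12a* were listed at 0 in each WT liver. Of 9 male-biased genes, 8 were tested and 7 were higher (5 under either of these), with sums of 76.4, 79.5 and 72.4 FPKM in WT and 465.0, 506.9 and 484.5 FPKM in mutant livers. Of 7 female-biased genes, 6 were tested, 4 were lower and 1, *Cyp2a4*, was higher, with sums of 409.1, 443.2 and 416.4 FPKM in WT and 83.2, 88.2 and 89.9 FPKM in mutant livers. Of 5 sex-linked genes, 3 were tested, *Xist* lower and 2 Y-linked genes higher. The lists share genes with each other and with those that respond to *Zhx2*, and the part of sex or maturity in the values of *Afp*, *Gpc3*, *Zhx2* and *Zbtb20* was not tested, since no liver breaks the pattern.

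Of 16 targets of β-catenin, all tested, 9 were higher by both thresholds and 0 lower, with a median of 1.34; 8 were higher under each of the 3 scalings. By adjusted p alone 12 were higher and 3 lower. *Cyp2e1*, the most abundant of them and a gene of the central zone of the lobule, had a log2 fold change of -0.23 (limma adjusted p = 0.0112).

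Markers of other liver cells also differed between the groups. Blood-forming cells populate the fetal liver, and of 12 erythroid genes 9 were tested and 5 were lower, with sums of 3609, 3310 and 3654 FPKM in WT and 1873, 1836 and 1811 FPKM in mutant livers. *Hba-a1* and *Hba-a2*, near-identical copies, were the most abundant, and *Gata1*, a defining factor of these cells, was at 0.381, 0.350 and 0.281 FPKM in WT and 0, 0.0708 and 0 FPKM in mutant livers. Of 7 cholangiocyte genes 4 were tested and 1, *Spp1*, was lower, with sums of 43.1, 41.6 and 39.7 FPKM in WT and 19.2, 18.6 and 19.3 FPKM in mutant livers. *Spp1* made up most of both sums, and no gene of either list was at 0 in all livers of a group. The other tested cholangiocyte genes were mixed. *Epcam* was lower by adjusted p alone (-0.68) and *Krt19* had no call (-0.26). *Sox9* was above WT in each mutant liver, without a call (0.24). Progenitor and biliary cells can also make *Afp* or *Gpc3*, and the part of these cell types in the results was not tested.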

How the data were processed

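Poly(A)-selected, strand-marked libraries of the 6 livers were sequenced as paired ends on a NovaSeq. The FPKM per gene were deposited by the authors, 1 column per liver, with 0 columns unused. The submitters' processing notes name cutadapt 1.9, HISAT2 2.0.4, StringTie 1.3.4d, DESeq2 and edgeR without their roles; the build is not given in the sources used here. Genes whose mean FPKM reached 0.5, 13243 in all, were put on the log2(FPKM + 1) scale, and 1 model was fitted with limma 3.58.1 (eBayes with trend; R 4.3.3), with Benjamini-Hochberg adjustment over all genes tested. Calls needed an adjusted p under 0.05 and a fold change of at least 2, the thresholds of the study's methods, or that p alone. The fit was tested on simulated data with normal noise and changes past the fold threshold. That test does not bear on calls by adjusted p alone, or on sex and maturity. Count tests could not be used on FPKM. Ratios and shares were compared by two-sided exact permutation tests (scipy 1.17.1, Python 3.11.15). Named were the members, *Ctnnb1*, the nearest profiles, genes of fixed lists and neighbors within 500 kb. The members and lists were chosen with earlier results of these data known. Alternatives were another pseudocount, filters, scalings, eBayes without trend, a replicate block and each liver left out. A comparison of the family's proteins was not run. No sequence for *Zhx2* was used.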

Additional observations from a re-analysis of the deposited data

How the results depend on the processing

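At a pseudocount of 0.1, 2705 genes passed both thresholds, against 1680, and *Zhx2* and *Zbtb20* joined them, at 1.07 and 1.21. After quantile normalization *Alb* was 0, since that method gives the top gene of every liver the same value, and *Gc* was -0.19 (limma adjusted p = 0.199, in a range from 0.000629 to that over its alternatives). The split of 1082 higher and 598 lower genes became 868 and 735 with median-ratio scaling, and 797 and 812 with quantile normalization. Rescaling each liver to a fixed sum gave 1348 and 963; it also enlarges all values, so that 15480 genes passed the filter and the pseudocount weighed less. Without each liver in turn, *Afp* ranged from -7.47 to -7.39, *Gpc3* from -4.53 to -4.42, *Alb* from -0.77 to -0.70, *Zhx2* from 0.73 to 0.83 and *Zbtb20* from 0.65 to 0.71. With the replicate block 1673 genes passed both thresholds; same-numbered livers did not deviate together (correlations 0.027, 0.021 and -0.0054), and no member changed its call.

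For the further named genes the alternatives were added after seeing the data. Signs reversed for *Nr5a2* (-0.065 after median-ratio scaling, -0.11 after quantile normalization), *Tcf7l2* (-0.048, -0.043, and -0.027 without mutant replicate 1, against 0.099 without mutant replicate 3), *Cyp3a41a* (-0.076, and -0.20 with a call by adjusted p alone), *Foxa2* (-0.079) and *Gm2602* (-0.0029) after quantile normalization, *Nfia* (-0.045 and -0.031 without WT replicate 2 or 3, against 0.46 without WT replicate 1) and *Nfix* (0.28 without mutant replicate 1, against -1.06 without mutant replicate 3). The cause was not tested. Depth is known only relatively, so the noise of genes as low as *Zhx2* and *Zbtb20* could not be estimated from counts. Sex and maturity cannot be told apart from genotype.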

Other observations

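The vitamin D carrier gene *Gc* changed little, while the 2 tested genes of vitamin D handling differed more. Of 7 genes of vitamin D handling, 2 were tested and both were higher in mutant livers. *Cyp27a1* had 19.8, 21.0 and 20.1 FPKM in WT and 242.9, 232.8 and 234.4 FPKM in mutant livers. *Cyp2r1*, which encodes a vitamin D 25-hydroxylase, had 1.05, 0.842 and 1.38 FPKM in WT and 4.10, 5.38 and 5.97 FPKM in mutant livers. For both, the groups did not overlap, as was true of 66% of all genes tested.

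Of 7 Kupffer cell genes, 4 were higher by both thresholds and 1, *Marco*, was lower (3 and 1 under each of the 3 scalings), with sums of 205.7, 207.7 and 211.1 FPKM in WT and 485.1, 479.1 and 473.1 FPKM in mutant livers. Endothelial and stellate cell genes were lower in 2 of 8 and 4 of 8 tested by both thresholds, and in all 8 of each by adjusted p alone; 6 stellate cell genes passed both thresholds under either quantile normalization or median-ratio scaling. Of 3 lymphocyte genes tested *Cd79a* was lower, while *Nkg7* was higher by adjusted p alone and *Cd3d* was higher in each mutant liver without a call. Of 8 cell cycle genes 2 were higher by both thresholds and all 8 by adjusted p alone, at low levels, with sums of 19.1, 17.6 and 20.4 FPKM in WT and 39.7, 40.6 and 39.2 FPKM in mutant livers. Their part in the values of the albumin family was not tested.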
